A study of Mus musculus with 9 samples.

Results

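The BCL2 family genes were followed here in sorted brain microglia of mice that differed in human TREM2. The list named 10 genes: the pro-survival genes Bcl2, Bcl2l1, Mcl1 and Bcl2a1d, the pore-forming effectors Bax and Bak1, and the BH3-only genes Bid, Bcl2l11, Bbc3 and Bad. Members were taken by annotation alone, as the array probe sets listed to only that gene, with the brightest probe set standing for a gene. That rule found 8 of the 10, and each of the 8 had 1 probe set, among 19938 genes with a probe set of their own. For Bcl2a1d the annotation listed 3 probe sets, all shared with its paralogs Bcl2a1a, Bcl2a1b and Bcl2a1c, and for Bax it listed none, so Bax is not analysed here. All 8 genes passed the filter on dim probe sets that left 10795 genes for testing.

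Arrays were run on CD45+ CD11b+ cells, called microglia in the labels, from 9 mice aged 8.5 months. Every mouse, whatever its group, carried 5XFAD, human transgenes that drive amyloid deposition, and lacked mouse TREM2, a surface receptor of microglia. The KO group (3 mice) had no human TREM2, the R47H group (3 mice) expressed the R47H variant of human TREM2, which is associated with Alzheimer's disease risk, and the CV group (3 mice) expressed its common variant. Mouse 1 of each group was female and mice 2 and 3 were male. The sources used here do not name the promoter of the human TREM2 transgene or its founder lines.

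BCL2 family proteins decide whether the outer mitochondrial membrane is opened during apoptosis. Pro-survival members bind and hold in check the effectors BAX and BAK, while BH3-only members, switched on by stress, bind the pro-survival proteins or engage the effectors directly. Microglia depend on survival signals from the CSF1 receptor, and TREM2 signalling through its adaptor has been linked to microglial survival. Much of the family is controlled after transcription, by phosphorylation, cleavage or protein turnover, which arrays do not measure.

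Microglial identity was checked first. Of 10 microglia markers 9 had a probe set and all 9 were above the array median, from Aif1 at 10.15 to Cx3cr1 at 12.33 (log2, mean of 9 arrays). The mean of these markers lay at 11.45 to 11.51 in KO, 11.41 to 11.48 in R47H and 11.26 to 11.31 in CV. Other cells also left transcripts in the sort. The mean of 14 neutrophil markers, 10 of them above the array median, lay at 5.70 to 8.75 in KO, 6.25 to 7.12 in R47H and 7.99 to 8.79 in CV, with KO mouse 3 at 8.75 against 5.70 and 6.05 in KO mice 1 and 2. Oligodendrocyte markers (8 of 9 above the median) averaged 5.78 to 6.50 in KO, 6.89 to 7.18 in R47H and 5.78 to 6.11 in CV. Astrocyte markers (4 of 8 above the median) averaged 5.29 to 5.77 in KO, 5.998 to 6.342 in R47H and 5.25 to 5.45 in CV. Neuron markers were below the median in 8 of 8, and T and NK cell markers in 7 of 9. In bulk cells, fewer cells of a type and less RNA per cell cannot be told apart.

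No BCL2 family member passed the test in any comparison of genotypes. In KO minus CV 0 of 8 were called (limma, Benjamini-Hochberg adjusted p under 0.05 over all genes), where 1.21% of all tested genes were called. In R47H minus CV 0 of 8 were called against 0.797% of all genes, and in KO minus R47H 0 of 8 against 0.0834%. The F-test of any genotype difference also called 0 of 8, against 1.32% of all genes. A count of 0 among 8 genes is near these shares. At an unadjusted p under 0.05 there were 2 members in KO minus CV (Bcl2 and Bcl2l1, against 13.2% of all genes and 6.23% for lower genes alone), 1 in R47H minus CV (Bcl2l1, against 12.4% and 5.24%) and 1 in KO minus R47H (Bcl2, against 5.68% and 3.53%). All of them were lower in the group named first. In each comparison these were also the members whose groups did not overlap, 2, 1 and 1 of 8. Groups did not overlap for 14.0%, 14.9% and 7.11% of all genes in the 3 comparisons, and for 5.90%, 6.17% and 3.84% in the lower direction. The median of the members was -0.11 in KO minus CV, -0.06 in R47H minus CV and 0.00 in KO minus R47H on the log2 scale, beside 0.02, 0.01 and 0.00 for all genes. The first 2 comparisons share the CV arrays, so their values are not independent.

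**Figure D1:**
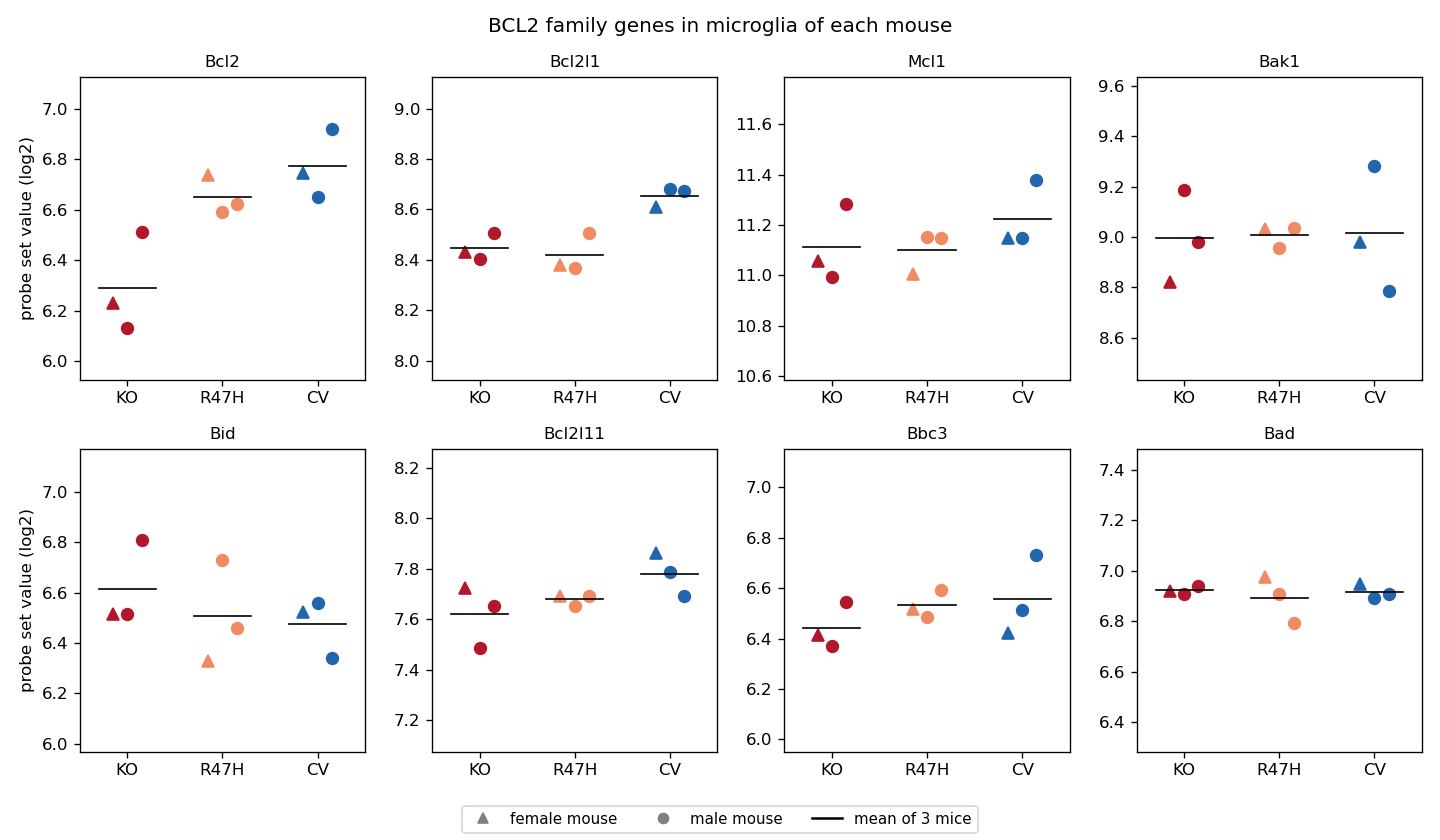
Log2 probe set value (y axis, one range per panel) of the 8 BCL2 family genes in each mouse of the KO, R47H and CV groups (x axis), with triangles for females, circles for males and a line at the mean of 3 mice. Bcl2 lies lowest in the 3 KO mice and Bcl2l1 highest in the 3 CV mice, while the groups overlap in the other 6 panels.

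Bcl2 (probe set 10357043), the founding pro-survival gene of the family, read 6.23, 6.13 and 6.51 in KO mice 1 to 3, 6.74, 6.59 and 6.62 in R47H mice and 6.75, 6.65 and 6.92 in CV mice. All KO mice lay below every R47H and every CV mouse, and R47H and CV mice overlapped. The means were 6.29 ± 0.20 in KO, 6.65 ± 0.08 in R47H and 6.77 ± 0.14 in CV (SD, n = 3 each). KO minus CV was -0.48 ± 0.11 (SE), a 0.716-fold level with a 95% interval of 0.598 to 0.858, and its limma adjusted p was 0.106. KO minus R47H was -0.36 ± 0.11 (adjusted p = 0.618), and R47H minus CV was -0.12, with an interval of -0.38 to 0.14 (adjusted p = 0.725). KO mouse 3, the mouse with the highest neutrophil markers of its group, was also the highest of its group for Bcl2. Without that mouse KO minus CV was -0.60 ± 0.10 and passed (adjusted p = 0.032). Without KO mouse 2, the lowest for Bcl2, it was -0.39 ± 0.12 (adjusted p = 0.278), and KO minus R47H was -0.27 ± 0.12 (adjusted p = 0.784). With a neutrophil score (the mean deviation of 10 tested markers) added to the fit, KO minus CV was -0.27 ± 0.13 (adjusted p = 0.78). KO minus R47H was then -0.37 ± 0.09 (adjusted p = 0.354), and R47H minus CV turned to 0.10 ± 0.13 (adjusted p = 0.924). No fit adjusted for oligodendrocyte or astrocyte markers, whose means were higher in every R47H mouse than in every KO mouse. The score lay at -1.32 to -0.11 in R47H and at 0.80 to 1.75 in CV, without overlap. In KO mice 1 to 3 it was -2.06, -1.59 and 1.71. Values adjusted for the score, here and below, therefore do not fully separate neutrophil content from genotype. With genotype and sex in the fit, the score varied mostly between KO mice 2 and 3. Mice 2 and 3 stood at -0.73 and -0.11 in R47H and at 1.75 and 1.55 in CV. All values adjusted for the score thus rest largely on KO mice 2 and 3. The RefSeq promoter of Bcl2 is shown because this gene had the smallest genotype F-test p of the members (adjusted p = 0.182). It spans chr1:106714241-106714540 on the minus strand (GRCm38.p6), with the first 50 transcribed bases in capitals.
Bcl2: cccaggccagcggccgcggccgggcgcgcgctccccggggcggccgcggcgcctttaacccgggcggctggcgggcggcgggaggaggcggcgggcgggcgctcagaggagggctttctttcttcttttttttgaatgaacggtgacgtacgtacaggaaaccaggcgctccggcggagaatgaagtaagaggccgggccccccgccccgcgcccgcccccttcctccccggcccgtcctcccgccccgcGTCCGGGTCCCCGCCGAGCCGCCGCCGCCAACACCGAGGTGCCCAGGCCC

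Bcl2l1 (10488655), which encodes the pro-survival protein BCL-XL, was highest in CV. It read 8.43, 8.40 and 8.51 in KO, 8.38, 8.37 and 8.51 in R47H and 8.61, 8.68 and 8.67 in CV. Every CV mouse was above every KO and R47H mouse, and KO and R47H mice overlapped. The gap was small: KO minus CV was -0.21 ± 0.07 (0.866-fold, 95% interval 0.778 to 0.963, limma adjusted p = 0.24) and R47H minus CV was -0.24 ± 0.07 (0.849-fold, 0.763 to 0.945, adjusted p = 0.215). KO minus R47H was 0.03, with an interval of -0.13 to 0.18. Adjusted for the neutrophil score the differences were -0.15 ± 0.10 for KO minus CV and -0.17 ± 0.10 for R47H minus CV. NF-kB is a factor known to drive several pro-survival genes. RefSeq lists 3 start sites for Bcl2l1. The window of the second is printed as the only one of them matching GGNNTTTCC (N is any base), a loose pattern for NF-kB sites. It covers chr2:152830668-152830967 on the minus strand (GRCm38.p6), and the capitals mark 2 matches to GGNNTTTCC, the first of them 218 bases before the start and read on the opposite strand.
Bcl2l1: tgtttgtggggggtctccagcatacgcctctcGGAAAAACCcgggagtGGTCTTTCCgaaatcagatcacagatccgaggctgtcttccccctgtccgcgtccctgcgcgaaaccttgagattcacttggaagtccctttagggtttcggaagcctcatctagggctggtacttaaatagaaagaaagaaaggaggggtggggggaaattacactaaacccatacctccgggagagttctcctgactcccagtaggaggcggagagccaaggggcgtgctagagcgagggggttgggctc

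Mcl1 (10494306), a short-lived pro-survival protein that many myeloid cells depend on, did not separate the genotypes. Its values were 11.06, 10.99 and 11.28 in KO, 11.01, 11.15 and 11.15 in R47H and 11.15, 11.15 and 11.38 in CV, so that the groups overlapped. KO minus CV was -0.11 ± 0.09 (95% interval -0.33 to 0.10) and R47H minus CV was -0.12 ± 0.09 (-0.34 to 0.09). Adjusted for the neutrophil score both came to 0.02 ± 0.12.

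The Bcl2a1 paralogs, close copies of a pro-survival gene induced by inflammatory signals and abundant in neutrophils and other myeloid cells, could be read mostly together, since only Bcl2a1c also had a probe set of its own. Their kinship is visible in the RefSeq promoters (GRCm38.p6, chromosome 9), in which each paralog holds the PU.1 motif GAGGAAGT (PU.1 is the lineage factor of microglia and other myeloid cells). The 60 bases around the motif are shown to make this visible, with the motif in capitals. They lie at chr9:88956790-88956849 (plus strand) for Bcl2a1a, chr9:89199099-89199158 (plus) for Bcl2a1b, chr9:114329895-114329954 (plus) for Bcl2a1c and chr9:88731921-88731980 (minus) for Bcl2a1d.
Bcl2a1a: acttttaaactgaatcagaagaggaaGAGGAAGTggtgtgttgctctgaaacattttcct
Bcl2a1b: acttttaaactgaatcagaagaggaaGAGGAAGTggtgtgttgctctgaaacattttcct
Bcl2a1c: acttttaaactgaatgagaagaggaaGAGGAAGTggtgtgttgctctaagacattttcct
Bcl2a1d: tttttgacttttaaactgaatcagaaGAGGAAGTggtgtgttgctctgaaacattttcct

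Over these 60 bases, compared without gaps, Bcl2a1a and Bcl2a1b had the same letter at all 60 positions. Bcl2a1c shared 57 with Bcl2a1a, and Bcl2a1d shared 48. Bcl2a1d lacks the letters gaggaa that stand directly before the motif in Bcl2a1a. Its letters before the motif are shifted by that gap, so the 48 does not count substitutions. From the motif on, Bcl2a1d matched Bcl2a1a at 34 of 34 bases. The motif, searched on both strands, was in 3.20% of 32851 promoter windows of 300 bases. Among the 16 windows of the 10 listed genes it was in 3 (Bcl2a1d, Bak1 and 1 of the Bad windows), GGNNTTTCC was in 3 (1 each of Bcl2l1, Mcl1 and Bbc3, against 5.82% of all windows) and the FOXO motif GTAAACA in 2 (1 each of Bcl2l11 and Bbc3, against 3.65%). A match is a stretch of letters and not a measured site.

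On the 3 shared probe sets CV mice were the highest. Probe set 10587683 read 11.68, 11.24 and 11.69 in KO, 11.68, 11.68 and 11.79 in R47H and 11.93, 11.93 and 12.11 in CV. Every CV mouse lay above every KO and R47H mouse, and KO mouse 2 stood lowest. Tested among 17778 probe sets, of which 0.439% were called in KO minus CV, 0.141% in R47H minus CV and 0.0169% in KO minus R47H, KO minus CV was -0.46 ± 0.13 (limma adjusted p = 0.277). R47H minus CV was -0.27 ± 0.13 (adjusted p = 0.535) and KO minus R47H was -0.18 ± 0.13 (adjusted p = 0.987). The other two, 10587690 and 10595633, gave -0.42 and -0.44 for KO minus CV and -0.28 and -0.28 for R47H minus CV, and count as the same measurement because all 3 are listed to the same 4 genes. The probe set annotated to Bcl2a1c alone (10589884) stood at 8.85, 7.86 and 8.79 in KO, 8.97, 8.57 and 8.85 in R47H and 8.92, 9.13 and 9.29 in CV. Whether this probe set also reads the other paralogs was not tested. Its KO minus CV difference was -0.61 ± 0.24 (adjusted p = 0.323 among genes), and -0.29 ± 0.15 without KO mouse 2, which read lowest. Without KO mouse 2 the difference of 10587683 was -0.30 ± 0.08 (adjusted p = 0.396).

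Neutrophil and monocyte markers were also lower in R47H than in CV in every mouse, and lower in KO mice 1 and 2, while KO mouse 3 lay near CV on both. The mean of 8 monocyte markers lay at 5.42 to 6.57 in KO, 5.49 to 5.70 in R47H and 6.58 to 6.99 in CV. S100a8, a calprotectin subunit abundant in neutrophils, read 7.84, 9.37 and 12.74 in KO, 9.22, 10.53 and 11.28 in R47H and 12.22, 12.79 and 12.83 in CV. Adjusted for the neutrophil score, KO minus CV of probe set 10587683 was -0.27 ± 0.17 (adjusted p = 1.00), that of Bcl2a1c was -0.19 ± 0.29, and R47H minus CV of Bcl2a1c changed sign to 0.11 ± 0.29. R47H minus CV of 10587683, 10587690 and 10595633 came to -0.08 ± 0.17, -0.11 ± 0.15 and -0.10 ± 0.15 in that fit. The adjustment rests largely on KO mice 2 and 3, and KO mouse 2 stood lowest on each of these probe sets. KO mouse 3, with S100a8 near the CV mice, read 11.69 on 10587683, close to KO mouse 1 at 11.68 and below all CV mice. In R47H, where S100a8 lay below CV in every mouse, the 3 shared probe sets did too. Whether neutrophil content underlies the Bcl2a1 differences was not tested.

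**Figure D2:**
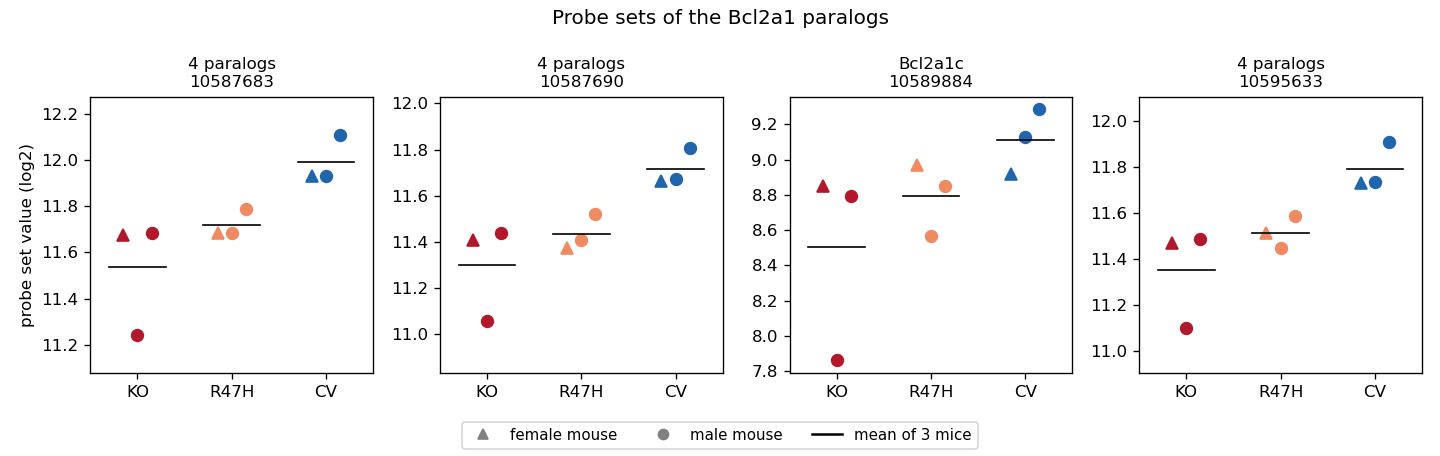
Log2 value (y axis, one range per panel) of the 3 probe sets listed to 4 Bcl2a1 paralogs and of the Bcl2a1c probe set in each KO, R47H and CV mouse (x axis), with triangles for females, circles for males and a line at the mean of 3 mice. On the shared probe sets all CV mice lie above all KO and R47H mice and KO mouse 2 lies lowest (11.24 on 10587683).

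Bak1 (10449303), the effector that forms pores in the outer mitochondrial membrane, showed no direction. It read 8.82, 9.19 and 8.98 in KO, 9.03, 8.96 and 9.03 in R47H and 8.98, 9.28 and 8.79 in CV. Mice of a group differed by more than the group means did, and KO minus CV was -0.02 ± 0.13, with a 95% interval of 0.803- to 1.21-fold. R47H minus CV was -0.01 ± 0.13.

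The 4 BH3-only genes did not separate the genotypes. Bcl2l11 (10475866), which encodes BIM, a target of FOXO factors upon loss of growth factor signals, read 7.73, 7.49 and 7.65 in KO, 7.69, 7.65 and 7.69 in R47H and 7.86, 7.79 and 7.69 in CV. KO mice lay low and CV mice high, with overlap, and KO minus CV was -0.16 ± 0.07 (95% interval -0.33 to 0.01, limma adjusted p = 0.405). Bbc3 (10550290), the p53 target PUMA, read 6.41, 6.37 and 6.55 in KO, 6.52, 6.49 and 6.59 in R47H and 6.42, 6.51 and 6.73 in CV, and KO minus CV was -0.11 ± 0.09. Bid (10547531), which links death receptors to mitochondria once cleaved, read 6.51, 6.51 and 6.81 in KO, 6.33, 6.73 and 6.46 in R47H and 6.52, 6.56 and 6.34 in CV. It was the only member with a KO minus CV difference above 0.1 (0.14 ± 0.12, interval -0.13 to 0.41). Bad (10461017), kept inactive by phosphorylation under survival signals, stayed within a narrow range, at 6.92, 6.91 and 6.94 in KO, 6.97, 6.91 and 6.79 in R47H and 6.95, 6.89 and 6.91 in CV. Its KO minus CV difference was 0.01 ± 0.07, with an interval of 0.906- to 1.12-fold.

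For the 6 members other than Bcl2 and Bcl2l1, the 18 differences between genotypes ran from -0.16 to 0.14. Their 95% intervals reached no further than 0.792-fold on the low side and 1.33-fold on the high side, over 3 mice a group. Sex was compared as well. In female minus male 0 of 8 were called (0.0648% of all genes were), 0 of 8 had an unadjusted p under 0.05 (11.0% of all genes did), and the differences ran from -0.11 for Bid to 0.10 for Bcl2l11.

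**Figure D3:**
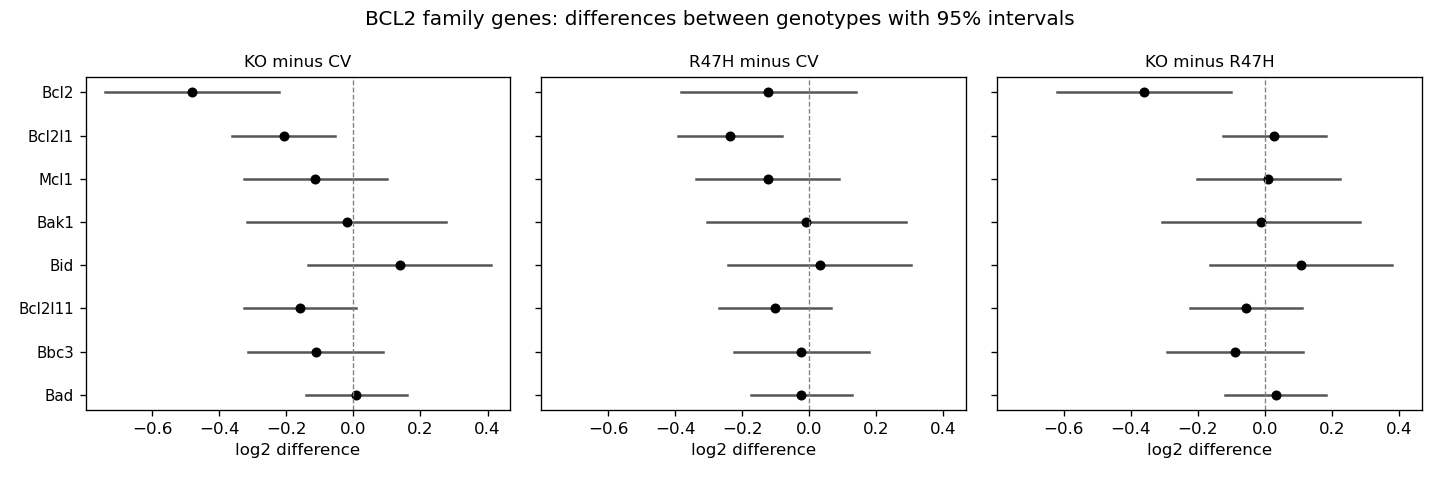
Log2 differences (x axis) of the 8 BCL2 family genes (rows) in KO minus CV, R47H minus CV and KO minus R47H, with points at the limma estimate and lines for the 95% interval. Intervals stay on the negative side of 0 for Bcl2 in KO minus CV and KO minus R47H and for Bcl2l1 in KO minus CV and R47H minus CV, and include 0 for all others.

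None of the further genes listed with the BCL2 family passed, with Bnip3 closest to the threshold in KO minus CV. Of 18 listed, 15 had a probe set of their own and 12 were tested, with 0 called in any comparison (limma). In KO minus CV 5 of the 12 had an unadjusted p under 0.05, 3 lower and 2 higher, where 13.2% of all genes did (672 lower and 750 higher of 10795). Bnip3, a mitochondrial protein of mitophagy that is induced by hypoxia, read 8.71, 8.30 and 8.44 in KO, 8.45, 8.09 and 8.36 in R47H and 8.13, 8.07 and 7.91 in CV. All KO mice were above all CV mice, and KO minus CV was 0.45 ± 0.09 (1.36-fold, adjusted p = 0.0717). Adjusted for the neutrophil score it was 0.53 ± 0.13 (adjusted p = 0.285). Its relative Bnip3l stood at 0.26 ± 0.08 in KO minus CV and 0.29 ± 0.08 in R47H minus CV (adjusted p = 0.222 and 0.217).

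Pmaip1, the BH3-only gene NOXA, whose product binds MCL1, read 7.31, 7.23 and 7.22 in KO, 7.33, 7.22 and 7.27 in R47H and 7.51, 7.92 and 7.65 in CV. CV mice lay above all others while KO and R47H mice overlapped. KO minus CV was -0.44 ± 0.10 (0.736-fold, limma adjusted p = 0.104), R47H minus CV was -0.42 ± 0.10 (0.75-fold, adjusted p = 0.151) and KO minus R47H was -0.03 ± 0.10. With the neutrophil score the first 2 were -0.47 ± 0.15 and -0.44 ± 0.16. Bcl2l13, a mitochondrial membrane protein, had a KO minus CV difference of -0.31 ± 0.11 (adjusted p = 0.255), and -0.20 ± 0.15 with the neutrophil score.

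The other tested genes of that list differed by less in KO minus CV. The BH3-only gene Bmf, released upon loss of attachment, stood at 0.22 ± 0.10, Bok, a relative of BAX and BAK, at 0.18 ± 0.11 and the BH3-only gene Hrk at 0.11 ± 0.08. The pro-survival gene Bcl2l2 stood at -0.03 ± 0.08 and the BH3-only gene Bik at -0.04 ± 0.06. Bnip2, which encodes a BCL2-interacting protein and not a family member, stood at -0.02 ± 0.08, and Bcl2l12 at 0.01 ± 0.09. Bcl2l10, Bcl2l14 and Bcl2l15 lay below the filter in all groups, with means of 2.79 to 4.22, and fitted without the filter their differences between genotypes ran from -0.10 to 0.09.

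**Figure D4:**
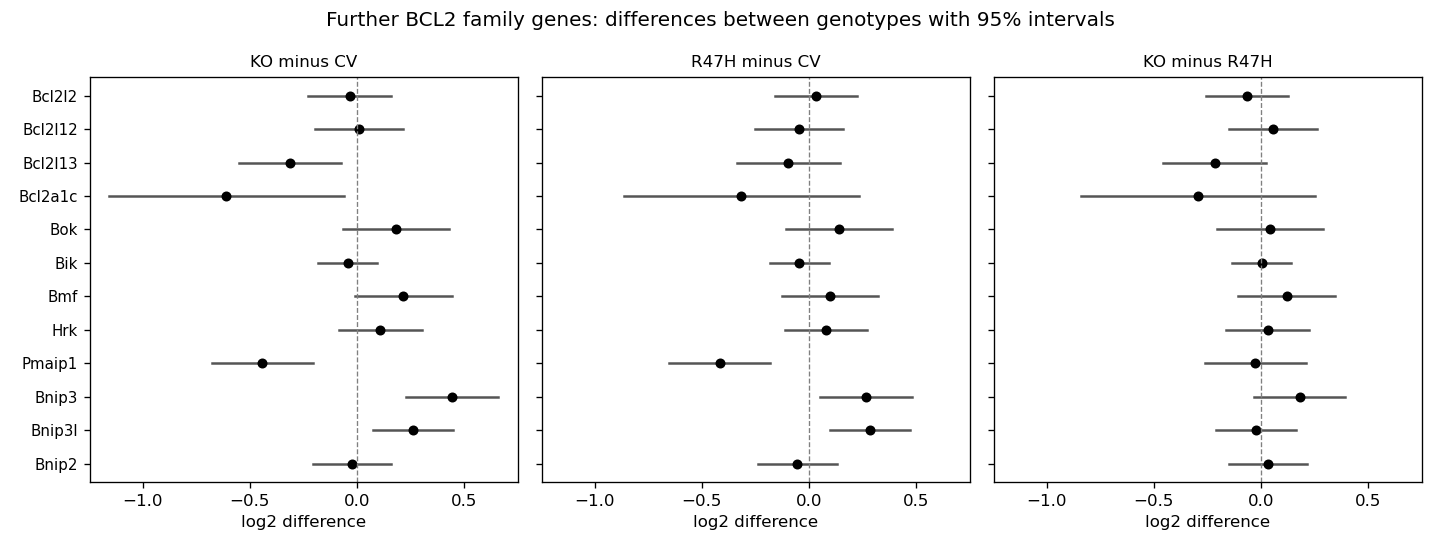
Log2 differences (x axis) of 12 further genes listed with the BCL2 family (rows) in KO minus CV, R47H minus CV and KO minus R47H. Points are at the limma estimate and lines show the 95% interval. Pmaip1 lies on the negative side of 0 and Bnip3 and Bnip3l on the positive side in both comparisons with CV, and no gene was called.

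Genes around the family were counted in 7 lists with 93 distinct tested genes. None was called in KO minus CV, R47H minus CV or KO minus R47H (limma), and the lowest adjusted p was 0.104, 0.227 and 0.723. At an unadjusted p under 0.05 there were 13 lower and 7 higher genes in KO minus CV, 10 and 2 in R47H minus CV and 1 and 2 in KO minus R47H. Over all 10795 genes these counts were 672 and 750 (6.23% lower, 13.2% either way), 566 and 770 (5.24% and 12.4%) and 381 and 232 (3.53% and 5.68%). NF-kB regulators, which act upstream of Bcl2a1 and Bcl2l1, had 13 of 14 negative differences in KO minus CV, at a median of -0.25 against 0.02 for all genes, with 6 lower and 0 higher at that level, beside 45.0% negative and 6.23% lower at that level among all genes. In R47H minus CV 13 of 14 were negative as well (median -0.19), beside 46.5% of all genes. Relb stood at -0.33 ± 0.11, Nfkbie at -0.36 ± 0.12 and Nfkbiz at -0.26 ± 0.08 in KO minus CV (adjusted p = 0.247, 0.256 and 0.216). Adjusted for the neutrophil score, Relb stood at -0.40 ± 0.16, Nfkbie at -0.33 ± 0.18 and Nfkbiz at -0.17 ± 0.11. Whether NF-kB activity differed between genotypes, or bore on Bcl2a1 or Bcl2l1, was not tested.

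AKT and FOXO signalling genes were mixed, with 15 of 22 positive in KO minus CV (median 0.08, 4 higher and 1 lower at an unadjusted p under 0.05, where 750 of all 10795 genes were higher and 672 lower). Pim1, a survival kinase that phosphorylates BAD, stood at -0.39 ± 0.09 in KO minus CV and -0.31 ± 0.09 in R47H minus CV (limma adjusted p = 0.104 and 0.227). Akt2, another kinase of BAD, stood at 0.22 ± 0.08 and Gsk3a at 0.20 ± 0.07 in KO minus CV. In the p53 list (7 of 12 positive, median 0.04) Mdm2, which degrades p53, stood at -0.33 ± 0.09, Zmat3 at 0.40 ± 0.11 and Gadd45b at -0.40 ± 0.17. The apoptosome and caspase list had 8 of 18 positive and a median of -0.03, with the inhibitor of apoptosis Birc3 at -0.32 ± 0.12, Apaf1, the scaffold of the apoptosome, at -0.13 ± 0.07 and the mitochondrial channel Vdac1 at 0.18 ± 0.10.

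Death receptor genes had 6 of 10 positive differences in KO minus CV (median 0.07). Tnf stood at -0.31 ± 0.10, Ripk3, a kinase of necroptosis, at 0.25 ± 0.11 and the adaptor Tradd at 0.20 ± 0.10. Of the ER stress genes that can induce BH3-only genes 9 of 10 were negative (median -0.08), beside 45.0% of all genes (median 0.02). In R47H minus CV 10 of 10 were negative, beside 46.5% of all genes. In KO minus CV the groups overlapped for all 10, while 14.0% of all genes did not overlap. Atf4 stood at -0.26 ± 0.11, Ppp1r15a at -0.27 ± 0.12 and the sensor kinase Eif2ak3 at 0.16 ± 0.10 in KO minus CV. Genes of MCL1 turnover had 4 of 7 positive (median 0.01), with Mapk9 at 0.28 ± 0.08, the deubiquitinase Usp9x at -0.10 ± 0.08 and Marchf5 at 0.13 ± 0.11. The adjusted p of these 9 genes (limma, KO minus CV) lay between 0.167 for Mapk9 and 0.68 for Marchf5.

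Among the members, values over the 9 arrays correlated most between Mcl1 and Bbc3 (Pearson's r = 0.79), Bcl2 and Bbc3 (0.73) and Bcl2l1 and Mcl1 (0.64), and least between Mcl1 and Bak1 (-0.45). The genes whose pattern over the 9 arrays was most like that of Bcl2 were Nploc4 (r = 0.95), Idnk (0.95), Ms4a7 (0.95), Ptpre (0.94) and Lrrfip2 (0.94). The 9 arrays differ in genotype, sex and neutrophil content, and these correlations do not separate those differences.

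**Figure D5:**
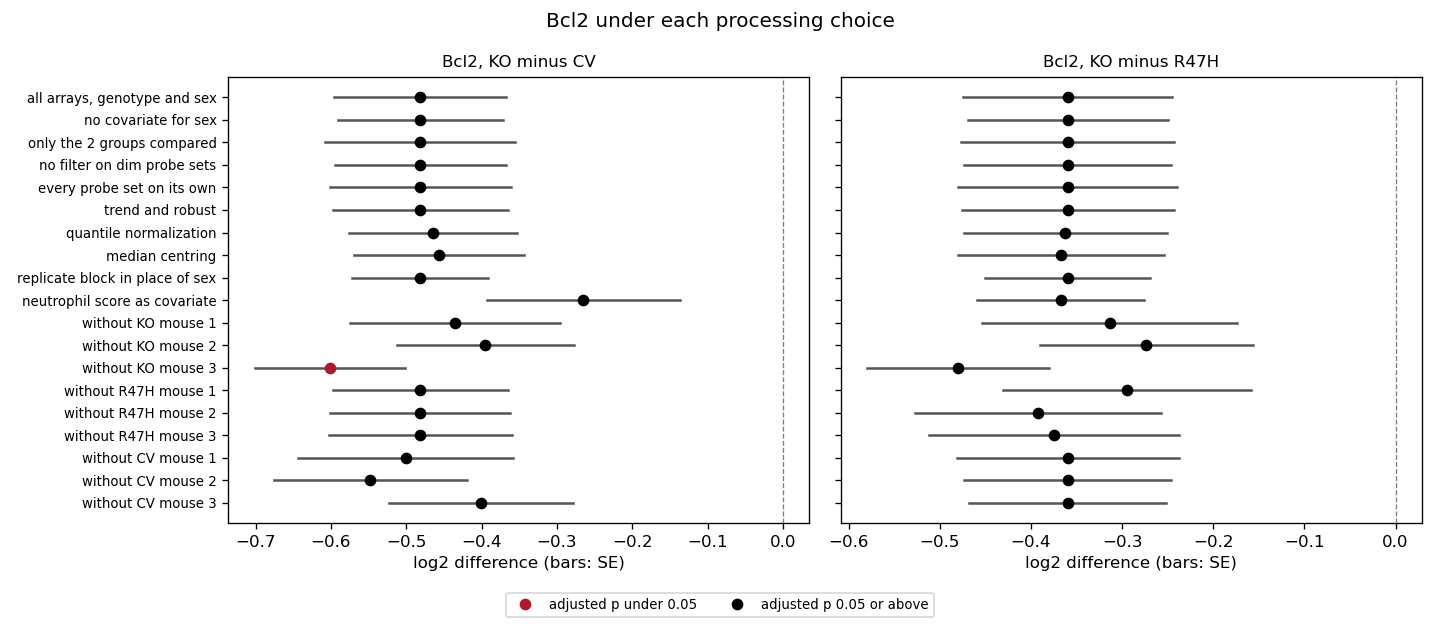
Log2 difference of Bcl2 (x axis, bars are SE) in KO minus CV and KO minus R47H under each processing choice and without each mouse (rows), in red where the limma adjusted p was under 0.05. All differences are negative, and KO minus CV passes only without KO mouse 3 (-0.60) and is smallest with the neutrophil score (-0.27).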

How the data were processed

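Expression of 35556 probe sets was measured on 9 Affymetrix Gene ST arrays, 1 per mouse. The authors deposited 1 log2 value per probe set and array. The scale was read from the range of the values (1.31 to 13.89), and the sources used here do not state background correction or normalization. Array medians were 5.28 to 5.35, and array number limits the precision.

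Groups came from the sample titles. Gene names came from GEO's platform annotation: 21789 probe sets list 1 gene and 1621 several, and 21698 of the former matched RefSeq by Entrez identifier. The brightest probe set stood for a gene, and genes whose mean reached the median probe set (5.31) were tested. Genotype and sex were fitted on all 9 arrays with limma 3.58.1 (lmFit, eBayes; R 4.3.3; 5 residual and 3.73 prior degrees of freedom). Tests were two-sided, and calls needed a Benjamini-Hochberg adjusted p under 0.05 over all 10795 genes. Probe sets shared by the Bcl2a1 paralogs were tested in a fit of all probe sets above that median. Fits were tested on simulated data. The labels name separate mice. With 3 mice against 3 a permutation test cannot reach 0.05, so the tests rest on limma's model.

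Named were all members and the further genes listed with the family. From each of the 7 pathway lists every called gene and the 3 with the smallest p in KO minus CV were named. Members and lists were chosen with earlier results of these data known. Alternatives changed covariates, samples, filter, scaling and probe sets. Promoters are RefSeq's (GRCm38.p6), present for all 10 genes. Scanner files, probe sequences and proteins were not used here.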

Additional observations from a re-analysis of the deposited data

How the results depend on the processing

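Of 432 combinations of a member, a genotype comparison and an alternative, 401 kept their direction and their side of the threshold, 30 changed sign without a call on either side and 1 gained a call. The number of members called in KO minus CV was 1 without KO mouse 3 (Bcl2, limma adjusted p = 0.032), and from 0 to 1 over the removals of single mice. It was 0 under the other alternatives, as it was in R47H minus CV, KO minus R47H, female minus male and the F-test under those that could be fitted. Over all alternatives Bcl2 ran from -0.60 (without KO mouse 3) to -0.27 (neutrophil score) in KO minus CV, with adjusted p of 0.032 to 0.78, and Bcl2l1 from -0.23 to -0.15. The cause was not tested.

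Whether mouse numbers pair the samples cannot be settled from 9 arrays. Correlations of deviations between same-numbered mice ran from -0.04 to 0.36. Of the 9 arrays 5 correlated best with their own number, number 1 being the females. With the replicate block in place of sex, Bcl2 stood at -0.48 ± 0.09 in KO minus CV (limma adjusted p = 0.0517) and 0 members were called. Over all genes KO minus CV called 131 genes, against 22 (neutrophil score) to 172 (without KO mouse 3), R47H minus CV 86, against 9 to 132, and KO minus R47H 9, against 0 (without R47H mouse 3) to 15. Among 1914 alternatives for the further genes and the Bcl2a1 probe sets, added after seeing the data, 0 gained a call and 75 changed sign uncalled.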
